A study of Mus musculus with 3 samples.

Results

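Genes of the mitotic programme are described here: Top2a, Mki67, Ccna2, Ccnb1, Ccnb2, Cdk1, Cdc25a, Cdc25b, Plk1 and Aurka. The data are a crosslinking map of mouse thymocytes, made with an antibody to the RNA-binding proteins ZFP36L1 and ZFP36L2. The genes were chosen by name, and every position that the deposited list assigns to one of those names was taken, whatever its segment type. All 10 genes were found, with 354 of the 462392 listed positions. The map comes from individual-nucleotide resolution crosslinking and immunoprecipitation (iCLIP), in which ultraviolet light joins a protein to the RNA it touches and the end of the cDNA marks the base.

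The series holds 3 libraries from thymus of C57BL/6JBabr mice, 2 of WT and 1 of DCKO genotype, the latter a conditional knockout of both Zfp36l1 and Zfp36l2. The cells are labelled total naive thymocytes in all libraries, while the series title speaks of pre-T cells. Cells were irradiated intact at 300 mJ/cm2, and complexes were recovered with an antibody against Brf1/2. A position therefore cannot be credited to ZFP36L1 or to ZFP36L2 alone. The WT libraries came from independent experiments, per the labels' protocols. For the promoter that drives the deletion, the age of the mice and the number of animals, the sources used here give nothing. The deposited list does not split its counts by library, and counts from the DCKO library may be among them. WT and DCKO therefore could not be compared, no value has a replicate error, and no test was made. Of 6 thymocyte markers all 6 were listed, with summed counts of 11 to 2270. The 12 markers of B cells, myeloid cells, erythroid cells and epithelium had 0 to 16. These ranges overlap, as Ptcra of thymocytes had 11 counts and no 3′ UTR site, and Itgam of myeloid cells had 16. The epithelial marker Epcam had 4 3′ UTR sites.

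ZFP36L1 and ZFP36L2 belong to a family of zinc finger proteins that bind AU-rich elements in 3′ untranslated regions (3′ UTRs). These proteins recruit the machinery that shortens poly(A) tails and degrades the mRNA. The core of such an element is UAUUUA, written TATTTA below. Mitotic genes are transcribed late in the cell cycle, and in the thymus they are active in the dividing precursors that have passed the pre-T cell receptor checkpoint. Top2a unlinks DNA strands before chromosomes separate, cyclins and Cdk1 drive entry into mitosis, and the Cdc25 phosphatases, Plk1 and Aurka switch that kinase on or act beside it.

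The sequences around the strongest 3′ UTR sites show what the crosslinked RNA looks like in each member that has one. A site is a position whose authors' FDR is below 0.05. Each window has 30 bases of GRCm38, read 5′ to 3′ on the strand of the gene. Capitals mark TATTTA where the window holds it, and otherwise the site itself. The site stands at base 15 of each window except the first of Top2a. That window was shifted to hold the second copy of TATTTA, and a window with the site at base 15 holds 0 copies.
Top2a, chr11:98993010-98993039, minus strand, strongest site at base 6: tgttatcaatgtcttttgtaaaTATTTAat
Top2a, chr11:98993060-98993089, minus strand: caacttgtgactgcCaagaccttctgtgct
Ccnb1, chr13:100779246-100779275, minus strand, strongest site at base 15: caagtatctttttttatgtaatTATTTAtt
Cdc25a, chr9:109892750-109892779, plus strand: cctctacttttaatTtaaaaaaaaaaaaaa
Cdc25b, chr2:131198166-131198195, plus strand: cccagaagacctctTgtatgtgtggttttt
Cdk1, chr10:69338436-69338465, minus strand: taggggaagatcgtGttgtttaccgttggc

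Top2a and Ccnb1 held most of the 3′ UTR signal of the mitotic genes. By GENCODE vM21 exons, 139 of 214 3′ UTR counts of the 10 genes (65.0%, 95% Wilson interval 58.3 to 71.0) lay in these 2 transcripts. They also held 19 of the 22 positions with a count of 3 or more. Only the clusters of Top2a and Ccnb1 in the 3′ UTR reached a summed count of 10, when sites at most 15 nt apart were joined. These 3 clusters summed to 56, 34 and 23, and the other 29 clusters of the 10 genes to between 2 and 9. Wilson intervals here cover counting error only and treat neighbouring positions as independent, which they are not. The deposited value is called a count here, but the file headers mark the kind of count as unknown. Of the positions of these genes 54.5% had a value of 2 and 39.3% a value of 1, where over the list it was 44.0% and 50.5%. Whether a value of 2 stands for more than 1 crosslinking event is not known, and most small clusters below rest on such values.

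By the authors' segment labels, 4 of 10 genes (Top2a, Cdk1, Cdc25a and Cdc25b) had a 3′ UTR site, where 17.7% of the 12541 protein-coding genes in the list had one. By GENCODE segments it was 5 of 10, with Ccnb1 added, against 19.3%. The median summed count over all segments was 33.5 for these genes and 13 for all protein-coding genes. Counts depend on how much of a transcript was present as well as on crosslinking. The share of dividing cells, the mRNA per cell and the binding per mRNA cannot be told apart here.

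**Figure D1:**
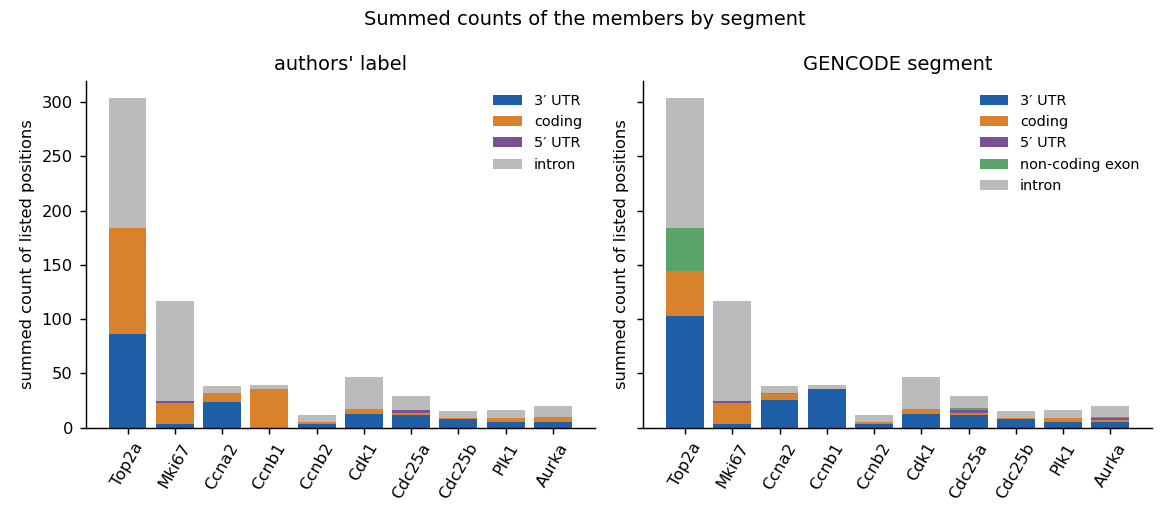
Summed counts of all listed positions for each of the 10 genes (vertical axis, counts of the pooled list), stacked by the authors' segment label (left) and by GENCODE segment (right, where non-coding exon means an exon outside the coding sequence and UTRs of coding transcripts). Top2a had 304 counts in all, and the 36 exonic counts of Ccnb1 move from coding to 3′ UTR between the panels.

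Top2a, which encodes DNA topoisomerase II alpha, lies on chr11:98992943-99024189 (minus strand). It had 158 positions with a summed count of 304, or 47.7% of the counts of all 10 genes, and ranked 365 among protein-coding genes. Its spliced 3′ UTR is 511 nt long in 2 exons, of 40 and 471 nt. Over it the list held 34 positions and 103 counts, 201.6 counts per kb of 3′ UTR, rank 18 of 6057 genes with a listed 3′ UTR position, whose median was 3.75. Summed over sites the authors labelled 3′ UTR, Top2a ranked 99.

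The Top2a counts were concentrated in a short stretch late in the 3′ UTR. The main cluster spanned 25 nt, from 420 to 444 nt after the stop codon, and its 12 sites had counts of 10, 8, 2, 6, 5, 8, 4, 4, 3, 2, 2 and 2 in 5′ to 3′ order. A weaker cluster upstream, at 379 to 398 nt, had counts of 8, 1, 2, 2, 1, 5, 2 and 2. The first 3 of these 8 sites carry the label coding and the other 5 the label 3′ UTR, although all lie in the same 3′ UTR exon. The label changes at position 98993071, which is where the processed transcript Top2a-207 of GENCODE ends. Outside the stretch from 379 to 479 nt, the 3′ UTR had only 4 positions, with counts of 1 or 2 each.

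Both copies of TATTTA in the Top2a 3′ UTR lay inside this stretch. They begin 404 and 437 nt after the stop codon, at chr11:98993045-98993050 and chr11:98993012-98993017, and the main cluster begins in the gap between them and runs past the start of the second. The highest count, of 10, lay in the gap at 420 nt, as did 2 of the 3 counts of 8, at 421 and 429 nt. The third count of 8, at 379 nt, opens the weaker cluster, which lies before the first copy, and has no TATTTA within 20 nt. Soft-masked repeat sequence held 9 of the 12 sites of the main cluster and none of the weaker one. Over all GENCODE 3′ UTR sites the masked share was 58.5%, and over those of the 10 genes 47.2%. All 17 sites labelled 3′ UTR had TATTTA within 20 nt (100%, Wilson interval 81.6 to 100), where 28.9% of all 3′ UTR sites did. By GENCODE segments the share was 17 of 20 (85.0%), against 28.1%. Within 10 nt it was 23.5% of the 17 (9.56 to 47.3), an interval that holds the 17.3% of all 3′ UTR sites at that distance. Of 3′ UTRs within 20% of this length, 27.8% of 1025 hold TATTTA at least once and 7.61% hold it at least 2 times. The motif was searched on the strand of the gene, and ATTTA is contained in it.

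**Figure D2:**
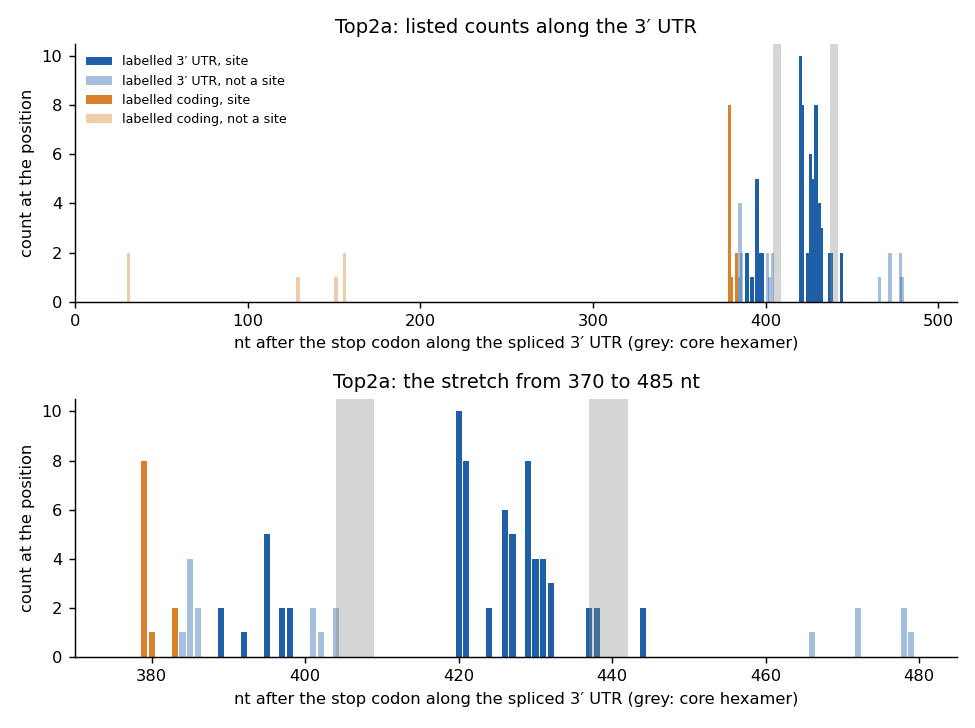
Count at each listed position (vertical axis) against distance from the stop codon of Top2a along its spliced 3′ UTR (horizontal axis, nt), over the whole 3′ UTR (top) and over the stretch that holds both clusters (bottom). Colours give the authors' label, pale bars are positions that are not sites, and grey bands are the 2 copies of the core hexamer, which flank the highest count of 10 at 420 nt.

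Ccnb1, the B-type cyclin that pairs with Cdk1 at mitotic entry, had a comparable cluster under another label. The gene lies on chr13:100778650-100786570 (minus strand), with 12 positions and 39 counts. No position of it is labelled 3′ UTR, and 10 positions with 36 counts are labelled coding. All 10 lie in the 3′ UTR of the first-numbered GENCODE transcript, which is 1028 nt long, and 9 of them are sites that span 17 nt from 403 to 419 nt after the stop codon. From 5′ to 3′ their counts were 1, 2, 2, 4, 7, 2, 10, 4 and 2. The cluster stands immediately before the only TATTTA of this 3′ UTR, which begins at 425 nt, so that 6 of 9 sites (66.7%, Wilson interval 35.4 to 87.9) had it within 20 nt. The copy is followed by a T, so the same 6 sites had the longer TATTTAT within 20 nt, against 21.0% of all GENCODE 3′ UTR sites. A run of TTTTTT lay within 20 nt of all 9, and 5 of the 9 were in soft-masked sequence. The share of all 3′ UTR sites near TTTTTT is not given here, so whether 9 of 9 is unusual is not known. The base at the highest count is a T, 8 nt before the motif.

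With the GENCODE segment, Ccnb1 ranked 291 among protein-coding genes by summed count over 3′ UTR sites, and Top2a ranked 89. Per kb of 3′ UTR, Ccnb1 had 35.02 counts, less than Top2a. The mismatch of labels was not particular to these genes. Of all sites labelled coding, 31.5% fell inside a 3′ UTR that GENCODE gives for their gene. Such sites occurred in 2.83% of protein-coding genes. Of the 10 genes described here, Top2a and Ccnb1 had such sites.

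In both transcripts most counts lay on the 5′ side of the nearest copy of the motif. Over GENCODE 3′ UTR sites within 25 nt of the first base of TATTTA, 63 of 79 Top2a counts (79.7%) and all 34 Ccnb1 counts stood before the nearest copy. For all other protein-coding genes this share was 55.8% of 17741 counts, with 24.9% on the motif itself. The motif itself held 4 counts in Top2a and 0 in Ccnb1. The 10 counts at the strongest Top2a position are among the 12 counted as lying after a copy. That position stands 16 nt after the start of the first copy and 17 nt before the second. All other Top2a site counts in the gap were counted as before the second copy, although they also lie after the first. The Top2a share therefore depends on the rule of the nearest first base, and a preference for a side was not tested.

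**Figure D3:**
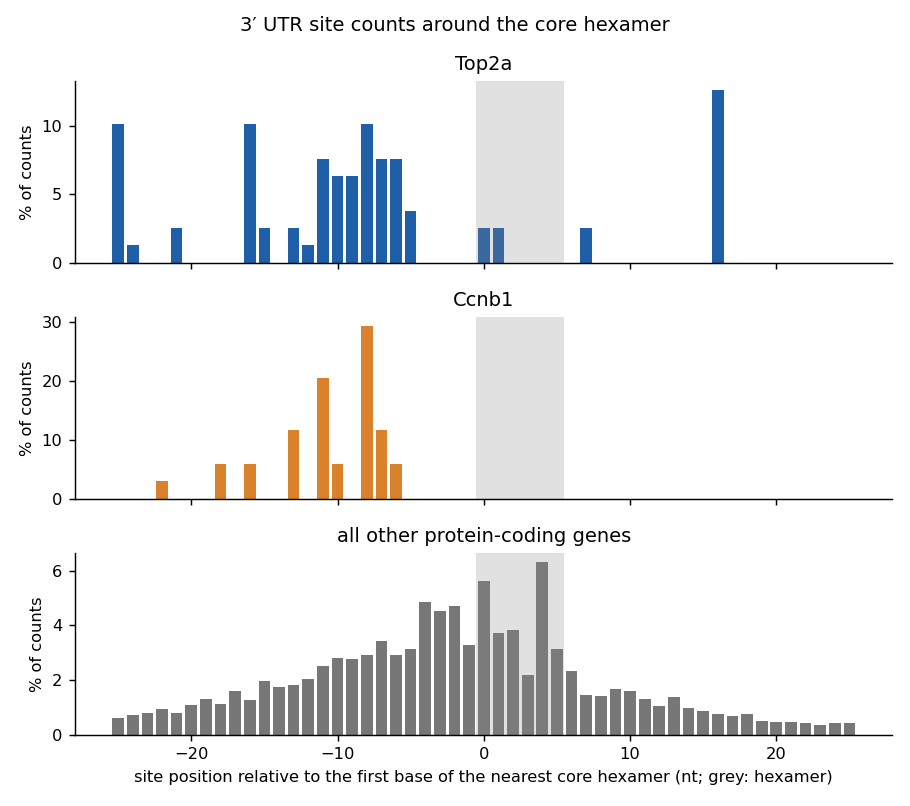
Share of 3′ UTR site counts (vertical axis, % of counts within 25 nt) by position relative to the first base of the nearest core hexamer (horizontal axis, nt, negative before the hexamer, which is shaded), for Top2a (79 counts), Ccnb1 (34) and all other protein-coding genes (17741). The Top2a and Ccnb1 bars lie mainly to the left of the hexamer, and no Ccnb1 count falls on it.

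The other cyclins had few counts in the 3′ UTR and no site there. Ccna2, the cyclin of S phase and G2 (chr3:36564865-36572150, minus strand), had 16 positions and 26 counts in a 3′ UTR of 1369 nt, none above a count of 2. They were scattered from 130 to 1333 nt, and the lowest authors' FDR of those labelled 3′ UTR was 0.127. Its only TATTTA, at 531 nt, had no listed position within 20 nt. Ccnb2, the second B-type cyclin (chr9:70407692-70421547, minus strand), had 2 positions with counts of 1 and 2 in a 3′ UTR of 227 nt that holds no TATTTA.

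Cdk1, the kinase bound by these cyclins (chr10:69335146-69352938, minus strand), had 8 positions and 13 counts in its 3′ UTR, all within 161 nt of the stop codon. GENCODE gives this gene 3′ UTRs of 174 and 3352 nt, and the list held no position beyond the shorter one. Its 2 sites, at 41 and 47 nt, each had a count of 2. The single TATTTA, at 747 nt, lies beyond the shorter 3′ UTR.

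The phosphatases that remove inhibitory phosphates from Cdk1 each had a small 3′ UTR cluster without TATTTA. In Cdc25a (chr9:109875579-109893895, plus strand) 3 adjacent sites had counts of 1, 3 and 2, and the window printed above shows them at the start of a run of A. ATTTA lay within 20 nt of all 3, which are themselves the T bases of the copy in that window. The share of all 3′ UTR sites near ATTTA is not given here. In Cdc25b (chr2:131186949-131198497, plus strand) 2 sites had a count of 2 each, 811 and 815 nt after the stop codon. Neither 3′ UTR holds TATTTA.

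The kinases Plk1 and Aurka, and Mki67, had no 3′ UTR site. Plk1 (chr7:122159439-122169873, plus strand) and Aurka (chr2:172356190-172370535, minus strand) had 3 3′ UTR positions each, with 5 counts each, and were the only 2 of the 10 genes without a site in any segment. Their totals were 16 and 20 counts. Mki67, whose protein coats mitotic chromosomes and marks dividing cells (chr7:135689784-135716361, minus strand), had 73 positions and 117 counts, the second highest total of the 10 genes. Of these only 3 positions with a count of 1 each lay in its 3′ UTR of 305 nt, which holds no TATTTA.

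Per kb of 3′ UTR, the order of counts was Top2a 201.6, Ccnb1 35.02, Ccna2 19.0, Plk1 17.7, Ccnb2 13.2, Mki67 9.84, Aurka 8.33, Cdc25a 7.16, Cdc25b 7.10 and Cdk1 3.88. Apart from Top2a, Ccnb1 and Ccna2, each of these rests on 13 counts or fewer, and no spread between libraries is available to order them. The Cdk1 value uses the longer 3′ UTR. Over the 174 nt of the shorter one, which holds all 13 counts, it was 74.7 per kb, so that Cdk1 moves from last to second. Which of these 3′ UTRs the cells used was not measured. The shorter length was added after the values were seen.

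The authors' FDR is not an equal height for all genes, which bears on which genes have a site. In Cdk1 and Cdc25b a sum of 4 counts within 15 nt had an FDR listed at 0, whereas a sum of 6 in Ccna2 had 0.127. Within Top2a, a sum of 24 among positions labelled 3′ UTR had 0.0246 and a sum of 21 had 0.0850, while a sum of 11 among the adjacent positions labelled coding was listed at 0. Of the listed positions of these genes, 32.4% of 74 labelled 3′ UTR were sites (37.8% over all protein-coding genes), 25.8% of 97 labelled coding (19.4%) and 34.3% of 181 labelled intron (28.5%).

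Of the 25 sites labelled coding, only 3 lay in GENCODE coding sequence. There the 10 genes had 51 positions and 81 counts, and the 3 sites among them, with 5 counts, were all in Mki67. The 3′ UTRs of Ccnb1 and Top2a took 9 and 3 of the 25, and exons of non-coding Top2a transcripts took 10, in clusters that summed to 8, 6 and 2 counts. Among these non-coding exons, 14 positions with 23 counts, and 7 of the 10 sites, lay between the 2 3′ UTR exons, from position 98993563 to 98993763. That segment is spliced out of the coding transcript, and none of its positions was near TATTTA. The 5′ UTRs held 2 labelled positions, in Mki67 and Cdc25a, with a count of 2 each and no site.

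Introns held 51.1% of the positions of these genes (45.9 to 56.3), against 79.1% for all protein-coding genes. The 62 intron sites formed 22 clusters, 8 in Top2a and 7 in Mki67, and the strongest of these summed to 9. TATTTA lay within 20 nt of 4 of 62 intron sites (6.45%, 2.54 to 15.4), where it was 22.1% over all intron sites. TTTTTT lay near 27 of 62 (34.6% over all), and 43 of 62 were in soft-masked repeat sequence (74.7% over all). A T stood at 46 of the 62 (74.2%, 62.1 to 83.4), against 69.3% over all.

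The following windows illustrate the kinds of sequence at intron sites, with the same use of capitals. The Top2a window has a T-rich tract and that of Cdk1 an alternating repeat, both without the motif, and that of Ccnb2 has the motif. A TATTTA begins 19 nt after the marked Top2a site, past the end of its window and not wholly within 20 nt.
Top2a, chr11:98998624-98998653, minus strand: tttcttttttttttTttctttttttaaaaa
Cdk1, chr10:69339680-69339709, minus strand: tgtgtgtgtgtgtgTgtgtgtgtgtgtgtg
Ccnb2, chr9:70415148-70415177, minus strand: atttTATTTAtttttttgaaataggttttc
The Top2a cluster here summed to 8 counts, the Cdk1 cluster to 7 and the Ccnb2 cluster to 4. The 2 sites of the Ccnb2 cluster, with a count of 2 each, were the only intron sites near TATTTA outside Top2a.

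Among genes with at least 10 3′ UTR sites, few had the motif beside every one. Of 482 such genes, 25 (5.19%) had TATTTA within 20 nt of all sites that the authors labelled 3′ UTR, Top2a among them. The 5 most like Top2a in this share and in summed count were Ncoa2 (77 counts over 19 sites), Pias2 (52 over 15), Mllt11 (92 over 22), Elk1 (49 over 16) and Nap1l4 (44 over 11). Their differences from the 68 counts of Top2a were between -0.63 and 0.44 on the log2 scale. The likeness rests on 1 pooled list and on the authors' labels. By GENCODE segment 17 of 20 Top2a sites (85.0%) had the motif within 20 nt, so Top2a would not be among genes with it beside every site.

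**Figure D4:**
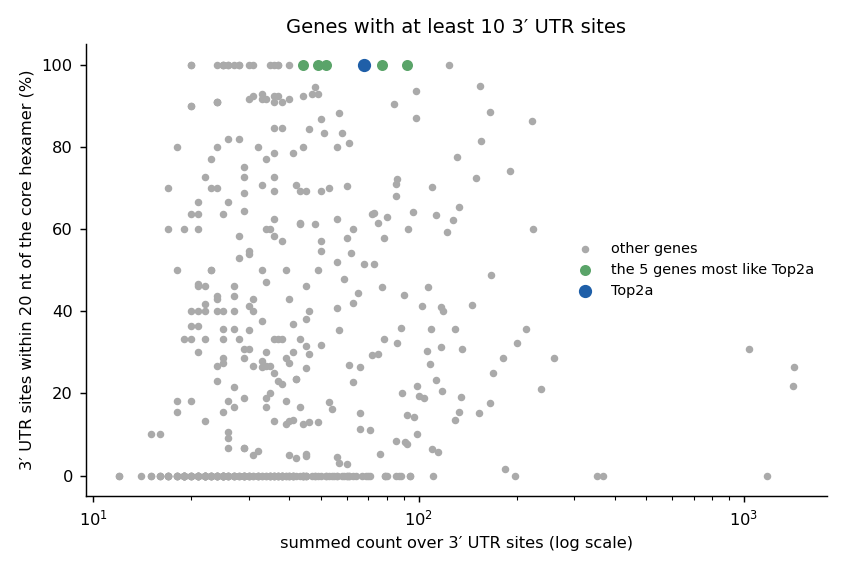
Share of 3′ UTR sites within 20 nt of the core hexamer (vertical axis, %) against summed count over 3′ UTR sites (horizontal axis, log scale) for the 482 genes with at least 10 such sites. Sites are those the authors labelled 3′ UTR. Top2a and the 5 genes most like it stand at 100%, with 44 to 92 counts, and by GENCODE segment Top2a had 85.0%.

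Other genes of mitosis had 3′ UTR sites in part, mostly away from the motif, as were 3′ UTR sites of all genes. In a list of 53 spindle, checkpoint, condensin and cytokinesis genes, all with a listed position, 14 (26.4%) had a 3′ UTR site by label and 17 (32.1%) by GENCODE segment, against the 17.7% and 19.3% given above. Their median summed count over all segments was 39. Of their 93 labelled sites 15 (16.1%) were within 20 nt of TATTTA, where 28.9% of all 3′ UTR sites were. Ube2c and Smc2 held 26 and 17 of the 93, with none near the motif, so this share leans on few genes. Ube2c, the ubiquitin-conjugating enzyme of the anaphase-promoting complex, led with 26 sites and 61 counts. Smc2, a condensin core subunit, had 17 sites and 28 counts, and Prc1, which bundles spindle microtubules, had 8 sites and 16 counts. Cdc27, a subunit of the anaphase-promoting complex, had 6 sites and 15 counts. Top2b, the paralogue of Top2a, had 4 sites and 15 counts, and Birc5, the survivin gene, had 6 sites and 10 counts. Of these 6 genes Prc1 alone had sites near TATTTA, 5 of its 8. Hmmr and Ncapd3, named after their values were seen, had it near all of their 4 and 5 sites. Cenpa, Ncaph and Pttg1 had 3′ UTR sites by GENCODE segment only, as Ccnb1 did.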

How the data were processed

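The authors deposited 1 list of positions. Per the file headers its value is a count of unknown kind, and since the strand is its sign it was treated as a score and its size used. The deposited sum within 15 nt and the authors' FDR, which exceeds 1 at 3825 positions, were likewise taken as scores. The submitters' processing notes name Bowtie and GRCm38. Reverse transcription primers carried random bases, per the labels' protocols, but how these and reads with several alignments were treated is not stated in these sources. Which libraries entered the list is not stated, so depth per library is unknown. If the DCKO library entered it, some counts come from cells with both genes deleted. A listed site therefore need not be binding of either protein. Counts sum to 814493. Counts of 2 stood at 44.0% of positions and counts of 3 or more at 5.45%.

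Positions count from 0 in the file and were raised by 1: 889 positions labelled coding then fall on the first base of a coding exon and 80 on the base before. Segments came from GENCODE vM21 (GRCm38.p6), which holds 94.2% of the protein-coding gene names. A position counts as 3′ UTR there if it lies in a 3′ UTR and in no coding exon of the named gene. Lengths and distances use the first-numbered transcript, and ranks per kb use all 3′ UTRs of a gene. Sequence was read from the RefSeq copy of GRCm38.p6 with pysam 0.24.0, and a motif is near when it lies wholly within 20 nt. Scripts (Python 3.11.15, pandas 2.3.3, scipy 1.17.1) were tested on simulated data. The design assumed no test, and none was run.

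Named were the 10 genes, the mitotic genes with a 3′ UTR site, up to 6 by summed count, and the 5 genes most like Top2a: at least 10 3′ UTR sites, a share near TATTTA within 5 percentage points, then the nearest log2 summed count. The genes, lists and rules were chosen with earlier results of these data known. Alternatives were a stricter FDR of 0.01, no threshold, a count of at least 3, GENCODE segments, windows of 10 and 50 nt, the motifs ATTTA and TATTTAT, and leaving out Top2a.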

Additional observations from a re-analysis of the deposited data

How the results depend on the processing

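The number of the 10 genes with a 3′ UTR site was 4 at an authors' FDR below 0.01 too, 5 by GENCODE segment, 9 over every listed position and 2 with counts of at least 3. For the 53 other mitotic genes it was 14, 14, 17, 36 and 6 in the same settings. The 24 3′ UTR sites of the 10 genes became 18 at FDR below 0.01, 36 by GENCODE segment, 74 over every listed position and 10 with counts of at least 3. The 68 counts of Top2a ranged from 53 to 86.

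The share of the 10 genes' sites near TATTTA, 70.8%, was 27.0% over every listed position and 90.0% with counts of at least 3. It was 16.7% within 10 nt, 0% for TATTTAT and 0% of 7 sites without Top2a. Over all labelled 3′ UTR sites the share was 28.9% within 20 nt and 17.3% within 10 nt. For every listed position, counts of at least 3 and TATTTAT by label, it is not given here. In Top2a alone, 100% became 74.1% over every listed position, 23.5% within 10 nt and 0% for TATTTAT, which its 3′ UTR does not hold. With TATTTAT over GENCODE segments, a setting added after the data were seen, the share was 16.7% of 36 sites, all 6 in Ccnb1. Over all GENCODE 3′ UTR sites it was 21.0%. By GENCODE segment 6 of 16 sites outside Top2a were near TATTTA, all in Ccnb1. Of 40 further values, the 3′ UTR sites of single genes under these settings, 25 stayed within 1.5 times and 15 did not. Most of those 25 were values of 0 that stayed 0, for which a ratio says nothing. They are no measure of stability.

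The cause of these moves was not tested. No paired analysis was possible because the list has no library column, and leaving out a library could not be done for the same reason. Every cluster except the 3 in the 3′ UTRs of Top2a and Ccnb1 rests on 9 counts or fewer, which is too little to set genes apart by depth. Transcript abundance was not measured here.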
